A study of Mus musculus with 8 samples.

Results

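The genes described here are 9 genes of the complement system, namely the C1q chains C1qa, C1qb and C1qc, the central component C3, the alternative pathway factors Cfb and Cfp, and the receptors C3ar1, C5ar1 and Itgam. They were taken by symbol from the 32285 genes of the feature lists, whatever their values, and were followed through immune cells of the mouse brain. Droplet-based single-cell RNA sequencing from the 5′ end of transcripts had been run on cells of the brain parenchyma sorted for CD45.2, a surface protein of white blood cells. There were 8 libraries, 1 for each of 4 conditions in 2 genotypes. All mice were C57BL/6J and 16 weeks old by the labels, while the study's methods give a younger age. WT mice carried no modified allele, and APPNL-G-F mice carry a humanised App gene with familial Alzheimer's disease mutations in its own locus, so that amyloid plaques form without an added promoter. Control mice drank water. Mice with acute colitis drank 2% dextran sulfate sodium (DSS), which injures the lining of the colon, for 1 week. Mice with chronic colitis had 3 cycles of 5 days of 2% DSS alternating with water, and mice with food allergy had been sensitised to ovalbumin and then received it by mouth. Every group had been given an antibody to CD45 into the blood before perfusion, and which cells it had marked is not visible in the counts. Each library pooled cells marked with several hashtag antibodies, and the labels do not tie a hashtag to a mouse.

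Complement is a cascade of proteins that tags targets for removal. C1q binds antibodies, lipids or aggregated proteins and starts the classical pathway, C3 is cleaved at the point where all pathways meet, and factor B and properdin drive the alternative pathway, which amplifies C3 cleavage. The fragments C3a and C5a attract and activate cells through their receptors, and C3 fragments fixed on a surface are bound by complement receptor 3, of which Itgam is the alpha chain. In the brain, C1q and C3 are known for tagging synapses and amyloid plaques, which microglia and macrophages take up.

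The libraries held 4873 to 7199 cells and 25615676 to 54618574 counts of unique molecular identifiers (UMIs) in cells, and between 34 and 72 cell barcodes were shared by each pair of libraries. Cells were assigned to a type by marker genes that included none of the 9 genes, and 40371 of 50072 cells received one. A further 3817 cells that met markers of different lineages were set aside as mixed. Levels are given as CPM, the UMIs of a gene summed over the cells of a type in a library per 1000000 UMIs of those cells. The macrophages of these libraries were mostly border macrophages, of which there were 1607, and 97 cells met the microglial markers. Pooled over libraries, Mrc1 and Pf4, which mark border macrophages, stood at 1002 and 1197 CPM in the first and at 24.0 and 45.8 CPM in the second. The microglial genes Tmem119 and P2ry12 stood at 31.2 and 38.5 CPM in the first and at 452 and 513 CPM in the second. Of the other border macrophage markers, Ms4a7, Adgre1 and Maf were also higher in the first. Apoe differed less, at 18430 against 10712 CPM, and Csf1r was slightly lower in the first, at 1137 against 1241 CPM. All these genes are among the markers that chose the cells, so their contrasts were favoured by the choice of cells. The cells also fell into 30 hashtag groups of which 14 had a low and 16 a high level of immediate-early genes in T cells, 580 to 1523 CPM against 2954 to 5867 CPM. Immediate-early genes are switched on within minutes by stimulation, tissue dissociation included. The sets differed in makeup, with 34 border macrophages in the low set and 1272 in the high set, and results that rest on this split are given within the high set as well.

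The 3 C1q chains lie side by side on chromosome 4 of GRCm38, all on the minus strand, with C1qb at 136880129 to 136886187, C1qc at 136889804 to 136893065 and C1qa at 136895917 to 136898803. The 3 chains had near-identical profiles over cell types, which is why the promoters of C1qb and C1qc are shown. They are RefSeq sequences of GRCm38.p6 from 250 bases before to 50 bases after the start of the gene, written in the direction of transcription, and 7 of the 9 genes had an entry. Capitals mark GAGGAA, the core bound by PU.1, a factor of myeloid cells, or its reverse complement TTCCTC, and TGCTGA, a second short motif that was searched.
C1qb, chr4:136886151-136886450, minus strand: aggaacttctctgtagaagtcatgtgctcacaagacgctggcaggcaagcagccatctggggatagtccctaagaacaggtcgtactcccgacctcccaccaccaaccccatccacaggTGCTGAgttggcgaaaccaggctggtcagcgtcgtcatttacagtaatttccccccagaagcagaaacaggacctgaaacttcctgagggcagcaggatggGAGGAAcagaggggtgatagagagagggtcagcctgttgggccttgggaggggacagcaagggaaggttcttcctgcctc
C1qc, chr4:136892865-136893164, minus strand: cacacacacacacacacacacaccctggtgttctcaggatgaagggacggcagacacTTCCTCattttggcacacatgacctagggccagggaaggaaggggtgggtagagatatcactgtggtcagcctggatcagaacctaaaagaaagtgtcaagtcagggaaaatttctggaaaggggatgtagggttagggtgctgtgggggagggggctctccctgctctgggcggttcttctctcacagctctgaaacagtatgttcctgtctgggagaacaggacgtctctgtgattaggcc
GAGGAA or its reverse complement occurred in 28.3% of the 32851 promoters of the same length, and TGCTGA or its reverse complement in 19.5%, each counted on both strands. C1qb held 1 copy of each on the strand as written, and C1qc held 1 copy of GAGGAA on the other strand and no TGCTGA. A match of so short a motif describes the sequence only.

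C1q was highest in border macrophages. C1qa averaged 4764 ± 768 CPM in border macrophages (SD, n = 8), C1qb 5847 ± 809 CPM and C1qc 3851 ± 586 CPM. At least 1 UMI was seen in 95.6% of border macrophages for C1qa, in 96.2% for C1qb and in 95.2% for C1qc. All 3 chains were found together in 93.2% of these cells, and in 86.6% to 95.9% of them by library, so that the chains of the C1q molecule were captured in the same cells in each library. Developing B cells, which should lack C1q, had a UMI of each chain in at most 0.253% of 1980 cells, at a median of 2814.5 UMIs against 3161 UMIs in border macrophages. The 97 microglia, pooled because 2 libraries only held 20 of them, had 4059 CPM of C1qa, 5006 CPM of C1qb and 3728 CPM of C1qc.

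The next types in the order carried far less C1q, held by few cells. Type 2 dendritic cells averaged 220 ± 123 CPM of C1qa, 424 ± 270 CPM of C1qb and 173 ± 110 CPM of C1qc (SD, n = 8), below border macrophages in 8 of 8 libraries for each chain. Of 706 such cells, the 85 with 10 or more C1q UMIs held 96.1% of the C1q UMIs of the type, and 18.8% of them carried several hashtags against 7.89% of the rest. In classical monocytes, with C1qb at 104 ± 66.7 CPM, 82 of 1985 cells held 88.9% of the C1q UMIs, and 25.6% against 7.30% carried several hashtags. In T cells, 62 of 8825 cells held 84.5% of them, and 69.4% of those cells carried several hashtags against 7.12% of the others. NK cells were alike, with 14 of 2803 cells holding 83.8% and 57.1% against 5.70% carrying several hashtags. A droplet with several hashtags holds more than 1 cell or free antibody, and its part in the C1q of these types was not tested beyond the values without such cells given with the comparisons. Barcodes ranked below the cells, which hold free RNA, had 61.2 to 591 CPM of C1qa by library.

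C3 was highest in the neutrophil and monocyte lines and low in macrophages. C3, at chromosome 17, 57203970 to 57228136 on the minus strand, averaged 244 ± 44.3 CPM in immature neutrophils, 238 ± 46.2 CPM in classical monocytes and 172 ± 33.5 CPM in neutrophils (SD, n = 8), and 144 ± 37.6 CPM in neutrophil precursors (n = 7). Border macrophages followed in the order at 27.3 ± 15.2 CPM. In types too rare for the order, pooled values of C3 were 76.0 CPM in nonclassical monocytes and 51.3 CPM in fibroblasts. Immature neutrophils and classical monocytes could not be ordered, as each was the higher in 4 of 8 libraries. A UMI of C3 was seen in 62.2% of immature neutrophils and 71.1% of classical monocytes, and after thinning each cell to 1000 UMIs in 19.1% and 21.3% of them, against 0.152% of developing B cells before thinning.

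Cfb, which encodes factor B, the protease of the alternative pathway, lies on chromosome 17 at 34856374 to 34862518 on the minus strand and was scarce, with 469 UMIs in all gated cells. It averaged 14.6 ± 8.56 CPM in border macrophages and 12.4 ± 7.09 CPM in classical monocytes (SD, n = 8), each the higher in 4 of 8 libraries, and stayed below 2 CPM in all other types of the order. A UMI was seen in 3.73% of border macrophages and 6.05% of classical monocytes, while 0 of 1980 developing B cells had one. Outside the order, which left out types present in too few libraries, 220 fibroblasts pooled over libraries had 70.5 CPM of Cfb, with a UMI in 17.7% of the cells.

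Cfp, the gene of properdin, which stabilises the C3-cleaving enzyme, was found in many types. It lies on chromosome X at 20925454 to 20931555 on the minus strand. Type 2 dendritic cells led with 404 ± 82.7 CPM and a UMI in 81.9% of cells, above classical monocytes in 8 of 8 libraries. Classical monocytes at 238 ± 38.6 CPM, border macrophages at 232 ± 70.6 CPM, mature B cells at 181 ± 53.4 CPM and neutrophils at 166 ± 45.3 CPM (SD, n = 8) overlapped with each other in their ranges. Developing B cells had a UMI in 0.808% of cells and mature B cells in 26.9%, at median depths of 2814.5 and 2415 UMIs.

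The 3 receptors had different leading types. C3ar1, the receptor of C3a on chromosome 6 at 122847138 to 122856161 on the minus strand, averaged 246 ± 43.7 CPM in border macrophages and had a UMI in 51.6% of them. Type 2 dendritic cells came next, at 3.96 to 27.4 CPM by library. In types too rare for the order, pooled values of C3ar1 were 397 CPM in microglia, with a UMI in 63.9% of cells, and 165 CPM in 273 basophils, with a UMI in 49.1%. Macrophages, microglia and basophils were the types with a C3ar1 UMI in 49.1% of cells or more.

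C5ar1, the receptor of C5a on chromosome 7 at 16246743 to 16259540 on the minus strand, led in neutrophils with 694 ± 215 CPM and a UMI in 79.0% of cells. Immature neutrophils followed at 491 ± 171 CPM, lower in 7 of 8 libraries, then border macrophages at 273 ± 72.6 CPM, lower than immature neutrophils in 8 of 8. Classical monocytes averaged 39.1 ± 58.6 CPM (SD, n = 8), a wide spread in which both control libraries were the highest. Pooled values of C5ar1 in types too rare for the order were 140 CPM in microglia, 118 CPM in basophils and 78.1 CPM in nonclassical monocytes.

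Itgam, the alpha chain of complement receptor 3, known as CD11b, lies on chromosome 7 at 128062640 to 128118491 on the plus strand. It was highest in immature neutrophils at 474 ± 27.9 CPM, with a UMI in 84.1% of cells, and above neutrophils at 373 ± 49.5 CPM in 8 of 8 libraries. Border macrophages at 199 ± 83.6 CPM, type 2 dendritic cells at 191 ± 37.9 CPM and classical monocytes at 188 ± 53.6 CPM overlapped, and NK cells stood at 37.2 ± 10.1 CPM (SD, n = 8). Developing B cells had a UMI of Itgam in 3.13% of cells, the highest such share of the 9 genes.

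**Figure D1:**
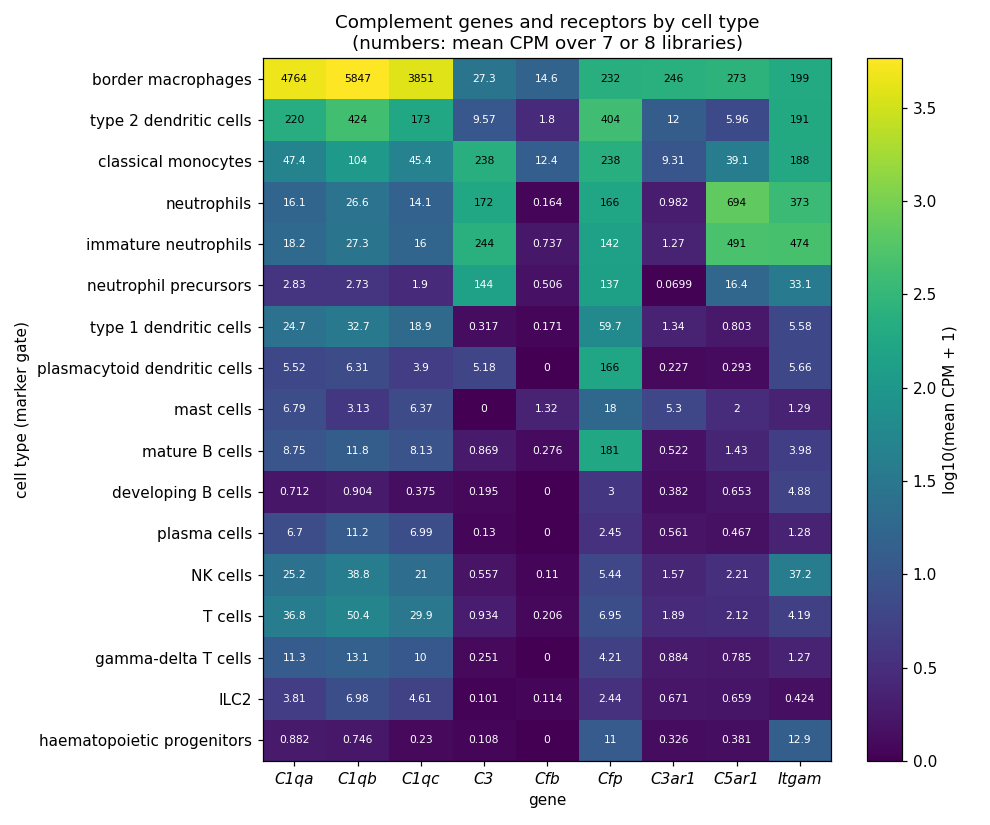
Mean level of each complement gene (columns) in each cell type (rows), as log10 of CPM plus 1 averaged over the libraries with at least 20 cells of the type. Brighter cells are higher. The C1q chains and C3ar1 are brightest in border macrophages, C5ar1 in neutrophils, C3 and Itgam in immature neutrophils and Cfp in type 2 dendritic cells.

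With 17 types in the order of each gene, 144 pairs of neighbours were compared by a two-sided exact sign-flip permutation test over libraries on log2(CPM + 10). With 8 libraries the smallest p this test can give is 0.0078125, and with 7 libraries it is 0.015625. The smallest p possible for their number of libraries was reached by 18 pairs. After Benjamini-Hochberg adjustment 0 pairs passed, and the smallest value was 0.0804. At an unadjusted p under 0.05 there were 25 pairs. The steps at the smallest p included border macrophages above type 2 dendritic cells for C1qa, C1qb, C1qc and C3ar1, type 2 dendritic cells above classical monocytes for Cfp, and immature neutrophils above neutrophils for Itgam.

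Among 6428 genes above 50 CPM in some type, those whose profile over the 17 types was most like a member's were named by Pearson's r, as a description over types that share libraries. The profile of C1qa was nearest to C1qc at 0.999 and C1qb at 0.991, and the nearest gene outside the complex was Axl at 0.979, a receptor in the uptake of dying cells. For C1qc it was Mrc1 at 0.980, the mannose receptor. For C3ar1 the nearest genes were Ccl12 at 0.984, Ms4a7 at 0.983 and Mertk at 0.982, and for C3 they were Chil3 at 0.990, Abcd2 at 0.984 and Hp at 0.982, of which Hp encodes haptoglobin. C5ar1 was nearest to Slc40a1 at 0.950, the iron exporter ferroportin, Cfp to Nfam1 at 0.910 and Itgam to Siglece at 0.957. The C1q genes and C3ar1 thus had macrophage genes as neighbours, and Mrc1 and Ms4a7 are also among the markers that chose those cells. Chil3, the nearest gene to C3, is likewise among the markers that chose classical monocytes.

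The first comparison asked whether complement expression differed with the App genotype. In border macrophages, C1qa stood at 5414, 5147, 3252 and 4347 CPM in WT mice (control, acute and chronic colitis, food allergy) and at 5265, 5478, 4983 and 4229 CPM in APPNL-G-F mice. The WT chronic colitis library was the lowest of the 8 and the 2 genotypes overlapped. C1qb was at 7055, 5631, 4361 and 5484 CPM in WT and at 6648, 6097, 5844 and 5658 CPM in APPNL-G-F, and C1qc at 3831, 4256, 2860 and 3537 CPM against 3979, 4741, 4218 and 3383 CPM. The genotypes again overlapped for both chains, and the same WT chronic colitis library, with 73 border macrophages, was the lowest. In edgeR's quasi-likelihood test with condition as a term, the log2 difference of APPNL-G-F from WT was 0.14 for C1qa, 0.11 for C1qb and 0.16 for C1qc, with standard errors (SE) of 0.13, 0.12 and 0.13 and Benjamini-Hochberg adjusted p of 0.918, 0.935 and 0.914. The 95% interval for C1qa ran from -0.12 to 0.40 on the log2 scale.

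**Figure D2:**
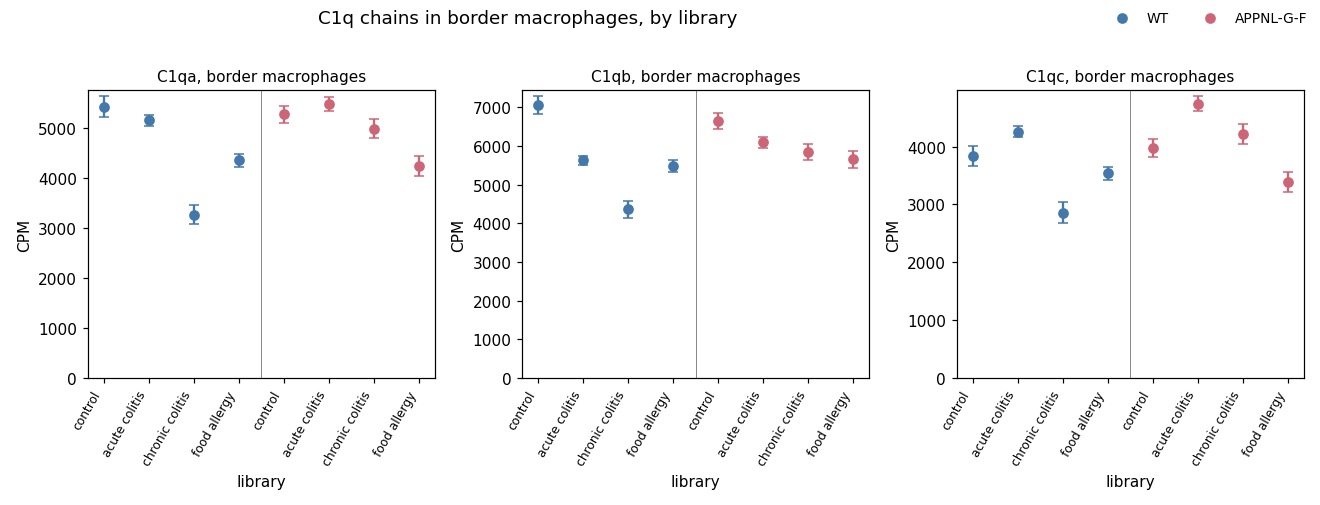
CPM of C1qa, C1qb and C1qc in border macrophages in each of the 8 libraries, WT left and APPNL-G-F right of the line, with exact Poisson intervals (95%, counting error only). The WT chronic colitis library is the lowest for each chain, and the genotypes overlap.

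None of the other members passed in border macrophages between genotypes. The log2 differences were -0.39 (SE 0.29) for C3, -0.57 (SE 0.51) for Cfb, 0.30 (SE 0.15) for Cfp, -0.15 (SE 0.17) for C3ar1, 0.27 (SE 0.14) for C5ar1 and -0.19 (SE 0.16) for Itgam. C5ar1 and Cfp were higher in APPNL-G-F mice in 4 of 4 conditions, with edgeR adjusted p of 0.771 and 0.760. C5ar1 in border macrophages was at 356, 266, 179 and 192 CPM in WT and at 383, 308, 262 and 239 CPM in APPNL-G-F, so that each condition's pair differed while the ranges overlapped. Over all 7402 genes tested in this type 0.365% were called.

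Across cell types, 66 pairs of a gene and a type had enough counts to be tested between genotypes, and 2 were called, both lower in APPNL-G-F mice, where 0.182% of all 118430 gene and type pairs were called. At an unadjusted p under 0.05 there were 22 of 66, with 7.28% of all pairs as background, and the median log2 difference of the 66 was -0.17. The called pairs were C1qa in T cells and in NK cells, where 0.395% and 0.725% of all genes were called. C1qa in T cells was at 64.6, 47.4, 26.1 and 77.8 CPM in WT and at 33.4, 16.6, 9.36 and 19.2 CPM in APPNL-G-F. The APPNL-G-F value was the lower in 4 of 4 conditions, with ranges that overlapped, and the log2 difference was -1.38 (SE 0.19, edgeR adjusted p = 0.0239). C1qa in NK cells was at 40.7, 41.9, 0 and 67.2 CPM in WT and at 21.9, 12.3, 0.827 and 17.1 CPM in APPNL-G-F, lower in 3 of 4 conditions, with a log2 difference of -1.41 (SE 0.26, adjusted p = 0.0234).

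Neither difference was called among cells with 1 hashtag. There C1qa in T cells stood at -0.62 on the log2 scale (edgeR adjusted p = 0.534), and in NK cells the sign turned to 0.30 (adjusted p = 0.905). Within the high immediate-early set the values were -0.24 (adjusted p = 0.876) and 1.12 (adjusted p = 0.629). The summed level of the 7 border macrophage markers in T cells ran with C1qa, at 331, 379, 203 and 361 CPM in WT and at 224, 202, 94.3 and 120 CPM in APPNL-G-F, and that of the immediate-early genes was 3225, 4491, 2775 and 4756 CPM against 1867, 2257, 1515 and 1801 CPM. Across cell types 15 of 31 pairs of a C1q chain and a type had an unadjusted p under 0.05 and were all lower in APPNL-G-F mice, namely 5 for C1qa, 6 for C1qb and 4 for C1qc, and border macrophages were not among them. Free C1q RNA, in the barcodes ranked below the cells, was also lower in APPNL-G-F mice in 3 of 4 conditions. Its C1qa stood at 275, 591, 86.5 and 321 CPM in WT and at 61.2, 173, 92.6 and 83.9 CPM in APPNL-G-F, and its C1qb at 396, 678, 112 and 423 CPM against 89.6, 145, 143 and 136 CPM. The chronic colitis libraries were the exception for both chains, and the part of free RNA in the differences was not tested. Neutrophils had the widest such gaps but few cells behind them. Of 1407 neutrophils, 9 held 78.8% of the C1q UMIs of the type, and 66.7% of those carried several hashtags against 7.73% of the rest. In the WT control library, the hashtag groups of 39 and 25 neutrophils with 1 hashtag each held 0 UMIs of C1qb. The part of droplets with several hashtags in these gaps was not tested. C1qb in neutrophils was at 112, 3.70, 12.9 and 55.9 CPM in WT and at 3.20, 1.37, 0 and 23.2 CPM in APPNL-G-F, from 0 to 19 cells with a UMI by library. The APPNL-G-F library was the lower in 4 of 4 conditions and the ranges overlapped (log2 -2.55, SE 0.67, edgeR adjusted p = 0.915).

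**Figure D3:**
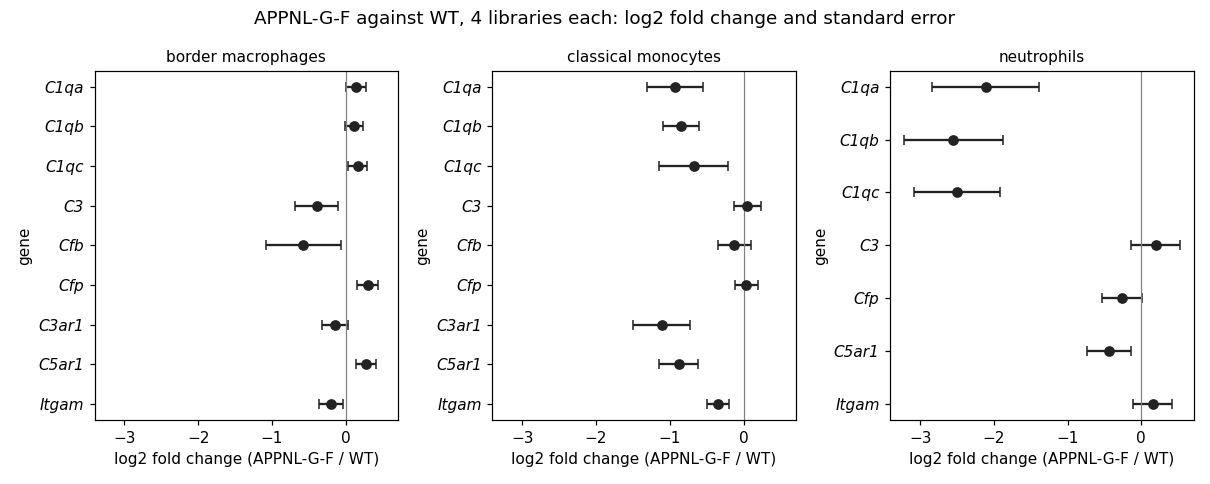
Log2 difference of APPNL-G-F from WT (x axis) for the members tested (y axis) in border macrophages, classical monocytes and neutrophils, over 4 libraries each, with bars of 1 SE from the edgeR fit. No difference shown passed the test, and the C1q chains lie near 0 in border macrophages and at -2.11 to -2.55 in neutrophils.

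The conditions were each compared with control over both genotypes, with 2 libraries a side and the same 2 control libraries in every comparison. In acute colitis 3 of 66 pairs were called, 1 higher and 2 lower, beside 0.503% of all pairs. In chronic colitis 5 of 66 were called, 1 higher and 4 lower, beside 0.279%. In food allergy 0 of 66 were called by edgeR beside 0.177%, and 14 had an unadjusted p under 0.05 beside 5.86%. DESeq2 called 3 and 6 pairs in acute and chronic colitis and 1 in food allergy, with no share of all pairs given. The median log2 difference of the 66 pairs was -0.32, -0.81 and -0.05 in that order, and 22 and 27 of them had an unadjusted p under 0.05 in acute and chronic colitis beside 7.69% and 7.91%. Within the high set, 5, 11 and 1 of 54 pairs were called in that order, all lower than in control, beside 2.4%, 2.8% and 0.718% of all pairs, and 0 between genotypes beside 0.13%. With counts summed by hashtag group, where groups of a library share its handling so that p-values are too small, 4, 9 and 2 of 53 pairs were called beside 1.48%, 1.67% and 0.462%, again all lower, and 1 between genotypes beside 0.585%.

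Classical monocytes gave the most calls. C5ar1 in them was at 175 CPM in the WT control library and 67.6 CPM in the APPNL-G-F control library, against 10.4 and 8.83 CPM in acute colitis, 5.14 and 6.75 CPM in chronic colitis and 24.3 and 14.5 CPM in food allergy (WT, then APPNL-G-F). Both control libraries were above all 6 others. The share of monocytes with a UMI of C5ar1 was 58.2% and 24.0% in the controls and 4.07% to 12.8% in the others. The receptor was 12.4-fold lower in acute colitis (log2 -3.63, SE 0.41, edgeR adjusted p = 0.0111) and 22.2-fold lower in chronic colitis (log2 -4.47, SE 0.37, adjusted p = 0.00137). In food allergy the log2 difference was -2.58 (SE 0.30), and the adjusted p was 0.129 by edgeR and 3.36e-05 by DESeq2. Of all genes in classical monocytes 0.487% were called in acute and 0.751% in chronic colitis. The call in chronic colitis held whichever library was left out, and that in acute colitis was lost without either acute colitis library, at adjusted p of 0.53 and 0.166.

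Within the high set, each library's hashtag groups showed the same split. C5ar1 in classical monocytes was at 198 and 200.1 CPM in the 2 groups of the WT control library and at 94.9 and 151 CPM in the 2 of the APPNL-G-F control library. The 12 groups of the other libraries lay between 0 and 34.2 CPM, so control groups did not overlap with them. In the low set the APPNL-G-F control library had 0 and 0.929 CPM in its 2 groups, no higher than the 1.44 to 3.70 CPM of the other 3 APPNL-G-F libraries. Summed over the high set, the log2 differences of C5ar1 from control were -4.51, -5.20 and -3.03 in the acute, chronic and allergy libraries, with edgeR adjusted p of 0.000451, 3.1e-05 and 0.00127, beside 4.44%, 15.6% and 2.38% of all genes of the type.

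Neutrophil markers moved with C5ar1 in the monocyte gate. The 7 neutrophil markers summed to 640 and 214 CPM in the control libraries and to 66.1 to 135 CPM in the others, against 9902 to 39782 CPM in neutrophils themselves. The 6 immature neutrophil markers summed to 1053 and 881 CPM against 200 to 355 CPM. The 7 border macrophage markers, at 5002 and 1826 CPM against 528 to 1866 CPM, did not separate the controls from the other libraries. In classical monocytes with no UMI of the 13 neutrophil genes, a set chosen after seeing the data, C5ar1 was at 69.7 CPM in 21 cells of the WT control library, from 13 UMIs, and at 8.92 CPM in 58 cells of the APPNL-G-F control library, from 4 UMIs. The other libraries had 0 to 14.7 CPM there. These cells had too few UMIs of C5ar1 and Cfb for the fit, so the part of neutrophil RNA in their differences was not tested.

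Cfb, C1qb and, in NK cells, C1qa were the other members called in chronic colitis in the lower direction. Cfb in classical monocytes was at 15.8 and 16.1 CPM in control, 18.5 and 16.4 CPM in acute colitis, 1.03 and 1.23 CPM in chronic colitis and 16.5 and 13.7 CPM in food allergy (WT, then APPNL-G-F). The chronic colitis libraries, with 4 and 2 UMIs, stood below all 6 others. They held 6 UMIs against 93 in control, or 6.81% of the control level with an exact counting interval of 2.44% to 15.4%, and the fitted log2 difference was -3.87 (SE 0.40, edgeR adjusted p = 0.00527). Without the WT chronic colitis library the adjusted p was 0.119.

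C1qb in classical monocytes was at 216 and 77.2 CPM in control, 121 and 135 CPM in acute colitis, 30.3 and 17.8 CPM in chronic colitis and 161 and 78.2 CPM in food allergy. The chronic colitis libraries were again the lowest of the 8, at -2.57 on the log2 scale from control (SE 0.36, edgeR adjusted p = 0.0136). The adjusted p was 0.287 without the WT chronic colitis library, and in monocytes with no neutrophil UMI the difference was -0.65 (adjusted p = 0.999). C1qa, C1qc and C3ar1 in classical monocytes had log2 differences of -2.57, -2.62 and -2.74 in chronic colitis, with adjusted p of 0.097, 0.139 and 0.0728. Within the high set all 3 were called, at -3.64, -3.58 and -3.32, beside 15.6% of all genes of the type. The 7 border macrophage markers, of which Apoe at 18430 CPM was the most abundant in border macrophages themselves, summed to 540 and 528 CPM in the monocytes of these libraries, the lowest of the 8. Their part in these differences was not tested.

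In NK cells, C1qa had 0 and 1 UMIs in the chronic colitis libraries against 59 and 32 in the controls, or 1.38% of the control level with a counting interval of 0.0344% to 7.86% (edgeR adjusted p = 0.0334). It was the 1 gene called of 8967 in this type, or 0.0112%. The call was lost without the WT chronic colitis library (adjusted p = 0.539), among cells with 1 hashtag (adjusted p = 0.501) and within the high set (adjusted p = 0.0624). The 7 border macrophage markers in NK cells summed to 51.0 and 51.3 CPM in chronic colitis, the lowest of the 8 libraries, and to 192 and 125 CPM in control.

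Itgam fell in border macrophages in acute colitis. It was at 337 and 316 CPM in the control libraries, 175 and 114 CPM in acute colitis, 122 and 158 CPM in chronic colitis and 202 and 171 CPM in food allergy (WT, then APPNL-G-F). Both controls were above all 6 other libraries. The difference in acute colitis was 2.27-fold lower (log2 -1.18, SE 0.22, edgeR adjusted p = 0.00938), beside 1.43% of all genes called in this type. Chronic colitis stood at -1.12 (SE 0.23, adjusted p = 0.0579, with 0.365% of all genes called) and food allergy at -0.75 (SE 0.22, adjusted p = 0.516). Without the WT control, the APPNL-G-F control or the APPNL-G-F acute colitis library the adjusted p in acute colitis was 0.0686, 0.0877 and 0.124.

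By hashtag group of the high set, Itgam in border macrophages was at 355 and 358 CPM in the WT control library and at 357 and 316 CPM in the APPNL-G-F control library. The 12 groups of the other libraries lay between 116 and 220.0 CPM, with no overlap. Summed over the high set, the log2 difference was -1.30 in acute colitis (edgeR adjusted p = 0.00134) and -1.26 in chronic colitis (adjusted p = 0.0215), and Cfp joined it in chronic colitis at -1.09 (adjusted p = 0.0365), beside 2.51% and 0.402% of all genes. Cfp in border macrophages was at 257 and 344 CPM in the control libraries and at 116 and 176 CPM in chronic colitis. The 7 classical monocyte markers in border macrophages ran with Itgam, at 1974 and 1809 CPM in the controls and 999 to 1433 CPM in the other libraries, and their part in the difference was not tested. The neutrophil markers did not run with it, at 132 and 115 CPM in the controls and 66.0 to 304 CPM in the others.

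**Figure D4:**
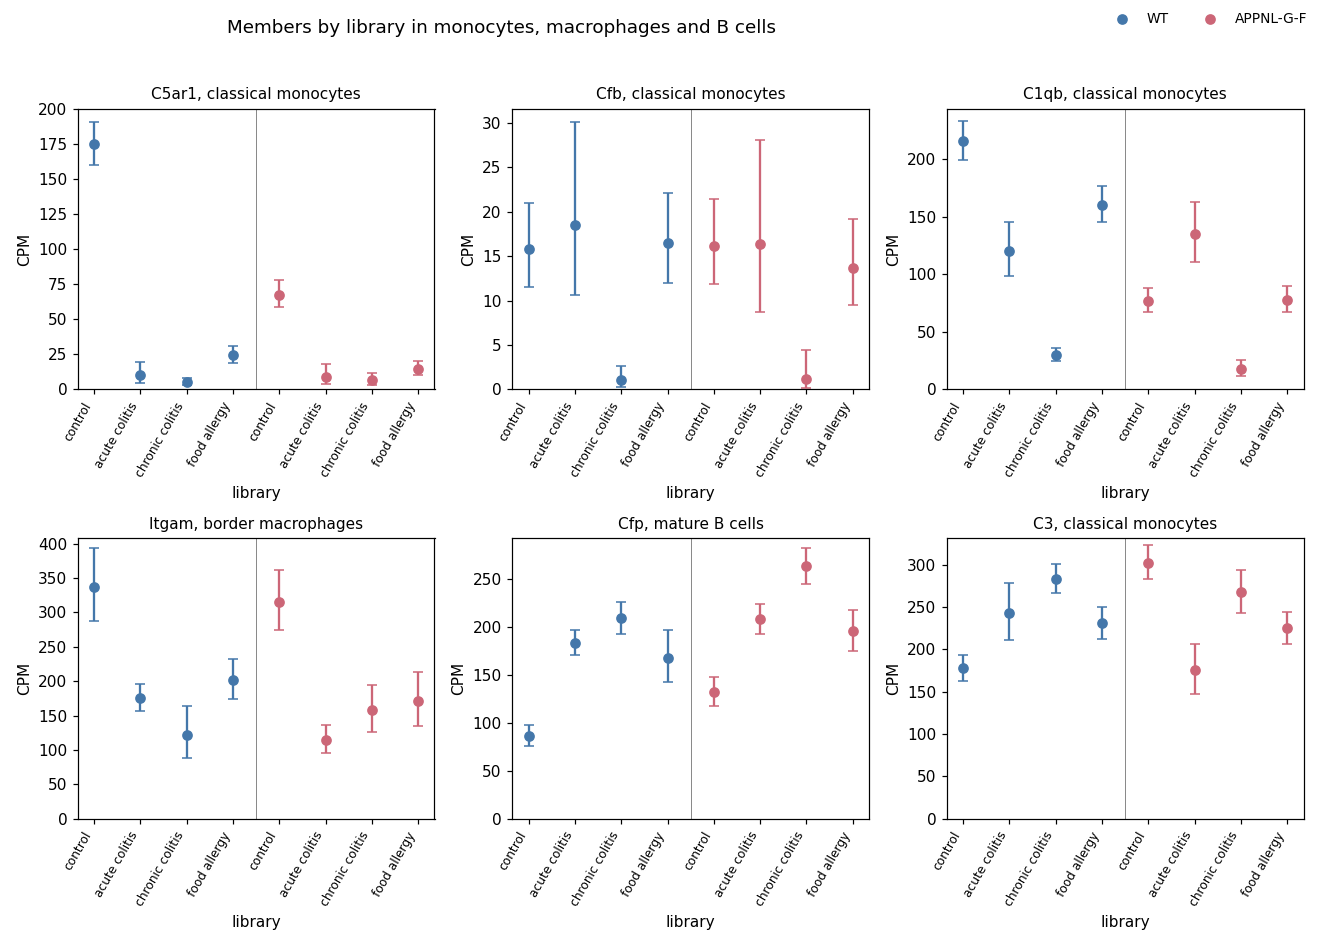
CPM by library, WT left and APPNL-G-F right of the line, of 5 members called between a condition and control and of C3 in classical monocytes, which was not called, with exact Poisson intervals (95%, counting error only). Both control libraries lie above all others for C5ar1 in classical monocytes and for Itgam in border macrophages, and both control libraries lie below for Cfp in mature B cells.

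Over all cells, Cfp was higher than in control in mature B cells in acute and chronic colitis, but neither difference was called within the high immediate-early set. It was at 86.3 and 132 CPM in the control libraries, 184 and 208 CPM in acute colitis, 209 and 263 CPM in chronic colitis and 168 and 196 CPM in food allergy (WT, then APPNL-G-F). Both controls were below all 6 others. The log2 difference was 0.95 in acute colitis (SE 0.15, edgeR adjusted p = 0.0166) and 1.17 in chronic colitis (SE 0.15, adjusted p = 0.022), beside 0.976% and 0.127% of all genes in this type, and 0.78 in food allergy (SE 0.15, adjusted p = 0.667). With 1 library left out the call in acute colitis was kept in 5 of 8 cases, and lost without the WT control, the WT acute colitis or the APPNL-G-F acute colitis library (adjusted p = 0.117, 0.184 and 0.0513). That in chronic colitis was kept in 3 of 8, and lost without the WT control library (adjusted p = 0.089), either chronic colitis library (0.174 for WT and 0.206 for APPNL-G-F) or either food allergy library (0.0622 and 0.0533).

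Cfp in mature B cells also differed between the immediate-early sets. In 7 of 7 libraries that held both sets, Cfp in mature B cells was higher in the high set, at 233 ± 72.4 CPM against 79.6 ± 35.8 CPM (SD, n = 7). The mix of sets also differed. Groups of at least 20 mature B cells held 96 and 471 low-set and 302 and 151 high-set cells in the WT control library. In the APPNL-G-F control they held 218 and 347 against 175 and 128. Acute colitis had 32 against 750 and 318 in WT and 394 against 406 and 338 in APPNL-G-F. Chronic colitis had only 473 and 430 high-set cells in WT, and 108 and 47 against 485 and 300 in APPNL-G-F. The part of this mix in the rise was not tested. Within the high set the difference from control was 0.34 in acute colitis (edgeR adjusted p = 0.443) and 0.47 in chronic colitis (adjusted p = 0.214), beside 0.338% and 0.888% of all genes called. With counts summed by hashtag group the genotype difference was called, at 0.72 on the log2 scale (adjusted p = 0.00508), beside 0.444%. In the fit by library it was 0.36 (SE 0.10, adjusted p = 0.38), higher in APPNL-G-F mice in 4 of 4 conditions, with 0.0781% of all genes called.

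**Figure D5:**
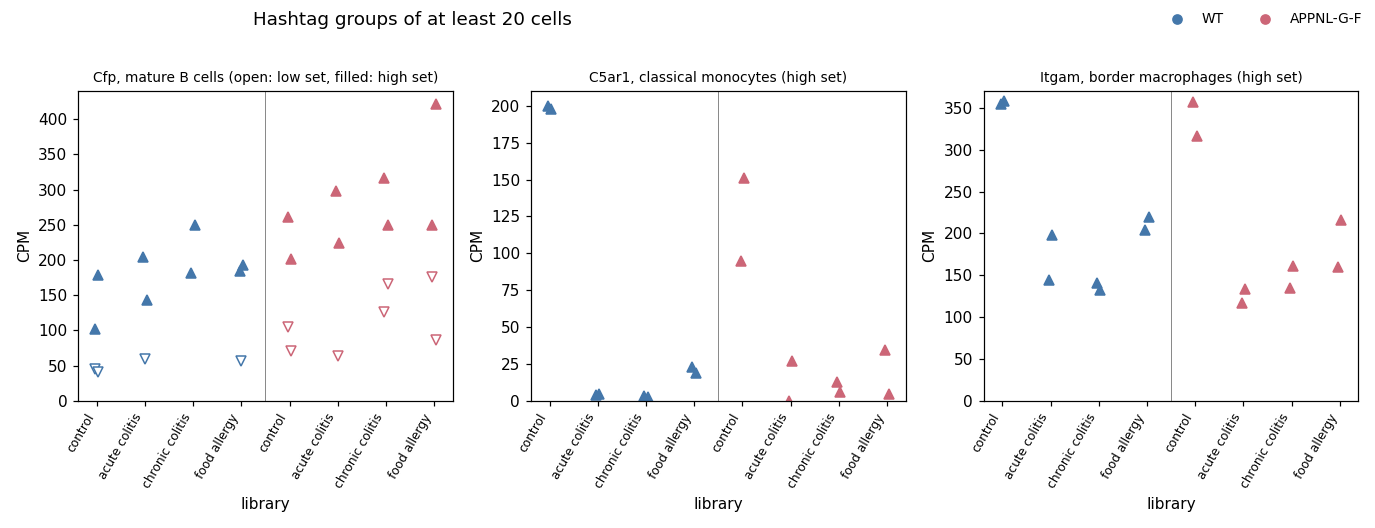
CPM of single hashtag groups of at least 20 cells by library, WT left and APPNL-G-F right of the line. Filled triangles are groups of the high and open ones of the low immediate-early set, which is drawn for Cfp only. Control groups of the high set lie above all other groups for C5ar1 in classical monocytes and Itgam in border macrophages, and for Cfp in mature B cells the groups of the high set lie mostly above those of the low set.

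In the neutrophil line no member was called over all cells. C5ar1 in immature neutrophils was at 857 and 497 CPM in control, 379 and 449 CPM in acute colitis, 313 and 360 CPM in chronic colitis and 570.2 and 506 CPM in food allergy (WT, then APPNL-G-F), with log2 -1.11 in chronic colitis (SE 0.36, edgeR adjusted p = 0.73). Within the high set C5ar1 and Cfp in immature neutrophils were both called, C5ar1 at -1.34 in acute and -1.12 in chronic colitis (adjusted p = 0.0070 and 0.0139) and Cfp at -1.31 and -1.23 (adjusted p = 0.0116 and 0.00909), beside 4.93% and 5.6% of all genes. C5ar1 lay at 542 to 908 CPM in the 4 control groups of the high set and at 239 to 368 CPM in the 6 groups of both colitis models. In the low set, which holds APPNL-G-F groups only for this type, the order was the other way round, with C5ar1 at 235 and 214 CPM in the 2 control groups and at 417 to 505 CPM in the 3 colitis groups, and Cfp at 47.0 and 93.8 CPM against 153 to 186 CPM. C3 in immature neutrophils and C5ar1 in neutrophils did not pass in any comparison.

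The rest of the pathway was followed through 46 other complement genes in 5 lists. Of these, 15 genes in 105 pairs with a type had enough counts, and 0, 1, 0 and 0 pairs were called by edgeR between genotypes and in acute colitis, chronic colitis and food allergy, beside 0.182%, 0.503%, 0.279% and 0.177% of all pairs. At an unadjusted p under 0.05 there were 7, 18, 19 and 15, beside 7.28%, 7.69%, 7.91% and 5.86%. The pair was Itgax, the alpha chain of complement receptor 4, in type 1 dendritic cells, at 42.0 and 40.0 CPM in control and 70.9 and 63.9 CPM in acute colitis, a log2 rise of 0.76 (SE 0.17, edgeR adjusted p = 0.0366), beside 1.72% of all genes of the type. Among the lists, C4b of the classical pathway was highest in border macrophages at 95.8 CPM. Fcnb, a ficolin of the lectin pathway, was highest in neutrophil precursors at 89.0 CPM, with immature neutrophils next at 79.7 CPM. Fcnb is itself among the markers that chose the neutrophil precursors, so its lead there was favoured by the choice of cells. Itgb2, the partner chain of Itgam, was highest in immature neutrophils at 579 CPM, as Itgam was. No gene of the alternative and terminal list, which holds C6, Hc and C8g, was above 2.06 CPM in any type of the order.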

How the data were processed

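The deposited values were UMI counts per gene and barcode, which the authors made with Cell Ranger on mm10 without normalization. The labels name version 6.1.2 and the matrix headers Cell Ranger 4. Gene positions come from GENCODE vM21. Cells were called by an order-of-magnitude cutoff at 3000 expected cells and, for barcodes with at least 500 UMIs, a test against barcodes ranked 45000 to 90000 at a false discovery rate of 0.01, and kept from 200 genes upward if mitochondrial UMIs made up no more than 5%. A type needed 3 markers, and a cell was mixed where another lineage reached 0.75 of the leading share. No doublet caller was run. UMIs were summed per library and type, and types with at least 20 cells in all 8 libraries were fitted in edgeR 4.0.16 (R 4.3.3) with TMM factors, filterByExpr and terms for condition and genotype, and p-values were adjusted by Benjamini-Hochberg over all genes of a type. DESeq2 1.42.0, RLE factors, no filter, stricter gates, cells with 1 hashtag, each set, hashtag sums and leaving out each library were alternatives. The code was tested on simulated data. Intervals and floors cover counting error only. Each group was 1 library, so p-values measure the spread between libraries only. The members, lists and tests were chosen with earlier results of these data known. Genes named are the members, their nearest profiles and other complement genes called or highest in a list, of which 2 are not reported here.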

Additional observations from a re-analysis of the deposited data

Results flagged for a closer look

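For 2 levels in a leading type, the libraries of the 2 genotypes moved in opposite directions from their own control, with 1 library each, and the difference was not tested. C3 in immature neutrophils was 93.3 CPM higher in acute colitis than in control in WT mice and differed by -75.0 CPM in APPNL-G-F mice. That APPNL-G-F value rests on 1 hashtag group of the low set, with 1102 cells at 168 CPM. In the high set C3 was higher in acute colitis in both genotypes, at 313 against 215 CPM in WT and at 307 CPM, from 58 cells, against 254 CPM in APPNL-G-F. C5ar1 in neutrophils differed by -178 CPM between food allergy and control in WT mice and by 178 CPM in APPNL-G-F mice. In the high set the directions of C5ar1 were still opposite, at 951 against 1089 CPM in WT and at 802 against 555 CPM in APPNL-G-F. The gap test between libraries of a genotype marked none of 18 groups, where chance marks about 1 in 20.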

How the results depend on the processing

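Without a filter on low counts the number of called pairs was 14 between genotypes and 18, 25 and 7 for acute colitis, chronic colitis and food allergy, where more genes were tested. In the high immediate-early set it was 0, 5, 11 and 1, and with hashtag sums 1, 4, 9 and 2. Between genotypes it was 0 with no term for condition and 0 among cells with 1 hashtag. DESeq2 called 3 of 66 pairs between genotypes, all lower, and 3, 6 and 1 in acute colitis, chronic colitis and food allergy. Outside the high set and hashtag sums, no share of all pairs called is given for these settings or with libraries left out. Such counts do not show whether members were called more often than other genes. Leaving out 1 library at a time gave 0 to 4 between genotypes, and 0 to 10, 1 to 13 and 0 to 2 for the conditions in the same order. The leading type of the main setting was kept for 2 of the 9 members in the low set. The low set held too few border macrophages and type 2 dendritic cells to rank them. C3 also changed there, although immature neutrophils were ranked, at 207 CPM against 214 CPM in classical monocytes. Classical monocytes took the lead for C3 or Cfb in some other settings.

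C1qa in NK cells between genotypes turned to 0.30 among cells with 1 hashtag, 1.12 in the high set and 1.22 with hashtag sums. In border macrophages the genotype difference of C1qa was -0.0021 without the WT and -0.0024 without the APPNL-G-F chronic colitis library, within a range of -0.0024 to 0.22 over all libraries left out, and that of Cfb 0.13 and 0.10 without the WT or the APPNL-G-F acute colitis library, within -1.14 to 0.13. The cause was not tested. Of the other values 376 kept their direction and side of the threshold, 42 lost the call and 5 shifted in another way. DESeq2 gave no adjusted p for Cfb in classical monocytes. No paired analysis was possible because each group is 1 library, so that no replicate number can serve as a block, while the genotypes were matched by condition through the term for condition. Cfb and C3ar1 are limited by depth, with few UMIs per library.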
